A study of Mus musculus with 9 samples.

Results

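Of 2297 kept cells of the subventricular zone (SVZ), 169 had transcripts of DNA replication genes but none of Mki67 and Top2a. Both are markers of cycling cells, and the 169 are called S-phase cells here. They were chosen from raw counts of unique molecular identifiers (UMIs, each standing for 1 captured transcript) in 3 libraries. A cell barcode was kept when it had at least 1500 UMIs and at most 10% mitochondrial UMIs. It was called an S-phase cell when Mcm2, Mcm3, Mcm5, Mcm6, Ung and Uhrf1 together had at least 3 UMIs and when Mki67, Top2a and Pdgfra, the receptor that marks oligodendrocyte precursors, had none. This left 60 cells at 3 months (adult), 71 at 14 months (middle-aged) and 38 at 24 months (aged). The whole series had 7402 barcodes, of which 2948 were from the SVZ.

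All animals were heterozygote Dcx-GFP mice, in which the promoter of Dcx drives green fluorescent protein, and cells with the GFP signal were sorted by FACS from the SVZ, the olfactory bulb (OB) and the dentate gyrus (DG). The tissue of 4 to 5 mice of both sexes was pooled at each age, with a single library per region and age. A difference between ages is therefore also a difference between 2 pools and 2 libraries, which cannot be told apart, and no test between ages was made. The sort leaves out cells without GFP, so that cells before Dcx promoter activity may be present only in part. The GFP transcript was not among the genes of the files.

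Adult SVZ neurogenesis passes from slowly dividing neural stem cells (NSCs) to transit amplifying progenitors (TAPs), which divide rapidly, and then to neuroblasts, which migrate to the OB and may still divide. Before a cell copies its DNA, the MCM proteins are loaded on replication origins as a ring of 6 subunits, and in S phase they act as the helicase that opens the double strand. Transcripts of these genes rise at the entry into S phase under E2F transcription factors, whereas those of mitotic genes accumulate later, in G2 and M phase.

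Of the genes in the rule, Mcm2, Mcm3, Mcm5 and Mcm6 encode helicase subunits, Ung encodes the uracil glycosylase that removes uracil from DNA, and Uhrf1 brings the maintenance methyltransferase to newly copied DNA. Their promoters were searched on both strands for 4 forms of the E2F motif, TTTCCCGC, TTTGGCGC, TTTCGCGC and TTTGCCGC, in 250 bases before to 50 bases after the gene start of RefSeq (GRCm38.p6). At least 1 of these forms was found in 4 of 6 rule genes, namely Mcm3, Mcm5, Mcm6 and Uhrf1, where Uhrf1 held it at the downstream one of 2 starts in the table and not at the other. The share over all 27025 genes, each counted once with any of its starts, was 2.61%, and over the 5297 genes with 20 or more UMIs in the S-phase cells it was 5.74%. Of the other S-phase genes listed below, 18 of 52 with a promoter in the table (34.6%) held a form, with 6 of 11 licensing genes, 7 of 21 fork genes, 5 of 11 genes of chromatin copying and 0 of 9 nucleotide genes. It was found in 1 of 18 G2/M genes, Cdk1, and in 0 of 12 neuroblast genes. A match is a description of the letters and not a binding site. The 4 promoters below are shown because Mcm5 and Mcm6 belonged to the rule and held overlapping forms on both strands, a run of 12 letters (TTTCGCGCCAAA, TTTCGCGCGAAA, TTTGGCGCCAAA or TTTGGCGCGAAA) found in the promoters of 4 of all genes searched (0.0148%), while Cdc6 and Hells stand for licensing and chromatin genes that the rule did not use. Capitals mark the E2F forms, and each sequence runs 5′ to 3′ on the strand of its gene.
Mcm5: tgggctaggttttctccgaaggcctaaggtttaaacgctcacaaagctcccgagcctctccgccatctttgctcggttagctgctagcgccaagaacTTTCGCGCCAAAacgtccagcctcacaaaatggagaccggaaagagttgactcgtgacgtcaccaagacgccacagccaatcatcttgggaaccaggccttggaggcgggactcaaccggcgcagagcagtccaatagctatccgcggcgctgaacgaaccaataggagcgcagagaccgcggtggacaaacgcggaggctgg
Mcm6: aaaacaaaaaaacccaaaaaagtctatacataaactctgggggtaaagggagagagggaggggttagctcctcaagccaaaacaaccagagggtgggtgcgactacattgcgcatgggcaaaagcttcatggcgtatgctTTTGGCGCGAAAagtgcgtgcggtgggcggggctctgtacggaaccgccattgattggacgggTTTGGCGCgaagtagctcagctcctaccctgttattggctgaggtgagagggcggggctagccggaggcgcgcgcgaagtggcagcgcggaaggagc
Cdc6: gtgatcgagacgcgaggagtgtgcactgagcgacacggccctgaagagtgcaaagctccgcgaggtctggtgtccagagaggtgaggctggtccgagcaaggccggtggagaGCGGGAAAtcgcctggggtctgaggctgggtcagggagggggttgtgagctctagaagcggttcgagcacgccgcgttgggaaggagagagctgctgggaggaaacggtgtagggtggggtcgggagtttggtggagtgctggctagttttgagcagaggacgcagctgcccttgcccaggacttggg
Hells: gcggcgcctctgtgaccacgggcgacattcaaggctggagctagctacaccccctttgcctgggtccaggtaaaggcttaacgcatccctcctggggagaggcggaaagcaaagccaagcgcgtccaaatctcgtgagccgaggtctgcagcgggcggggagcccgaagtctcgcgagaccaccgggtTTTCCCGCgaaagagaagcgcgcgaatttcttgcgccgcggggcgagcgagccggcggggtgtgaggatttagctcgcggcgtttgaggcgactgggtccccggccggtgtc
In Mcm5 (chr8:75109259-75109558, + strand) the run covers bases −153 to −142 from the gene start, and in Mcm6 (chr1:128359656-128359955, − strand) it covers −110 to −99, with a further form at −47 to −40. Cdc6 (chr11:98907901-98908200, + strand) holds GCGGGAAA, the reverse complement of a form, at −138 to −131. Hells (chr19:38930740-38931039, + strand) holds TTTCCCGC at −62 to −55.

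The rule cut through a continuous range of counts. Among the kept SVZ cells without Mki67, Top2a or Pdgfra UMIs, 980 had no UMI of the rule genes, 236 had 1, 50 had 2, 26 had 3, 18 had 4 and 15 had 5. The S-phase cells had a median of 8 rule UMIs and a highest value of 28, and 67 of them had 10 or more. By age the median was 5.5 at 3 months, 9 at 14 months and 7.5 at 24 months. Cells just outside, with 2 UMIs, had a median depth of 4580.5 UMIs and 4.38 rule UMIs per 10000, against 5261 UMIs and 5.70 per 10000 in the cells just inside. Of all kept cells with 3 or more rule UMIs, 669 in number, 494 also had Mki67 or Top2a and 6 had Pdgfra only, so that most cells with replication transcripts lay outside the S-phase cells by the rule.

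**Figure D1:**
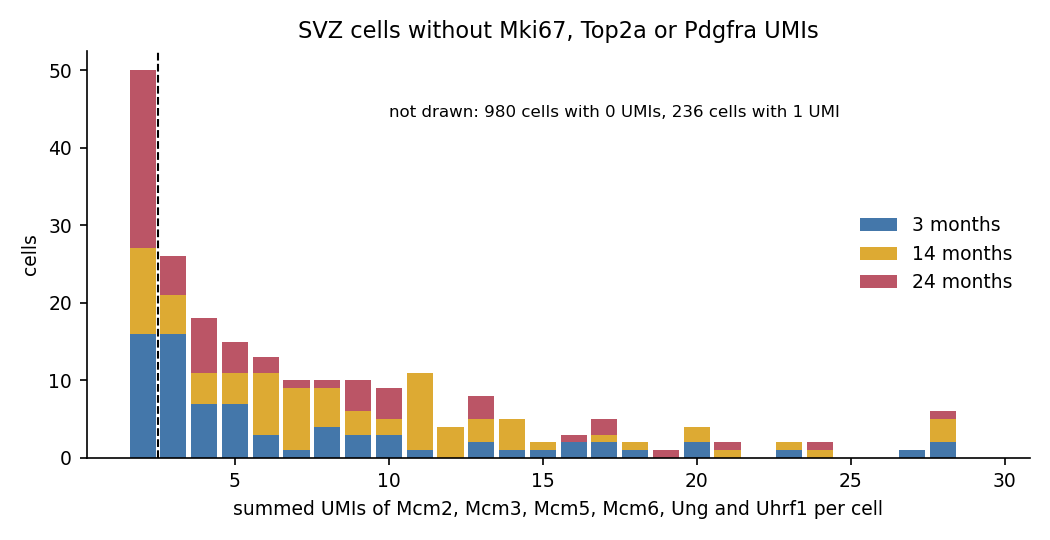
Histogram of the summed UMIs of the 6 rule genes per cell (x axis) against the number of cells (y axis, stacked by age) for kept SVZ cells without Mki67, Top2a or Pdgfra. Cells with 0 (980) or 1 (236) rule UMIs are not drawn, the dashed line marks the limit of 3 UMIs, and the counts fall from 50 cells at 2 UMIs to 26 at 3 without a gap at the limit.

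The S-phase cells held 418753, 505445 and 315428 UMIs at 3, 14 and 24 months, and a cell had a median of 7003, 7387 and 8876.5 UMIs. Mitochondrial transcripts made up 2.69%, 2.96% and 3.12% of the UMIs. No S-phase cell had more than 4000 detected genes, and Scrublet called none of them a doublet (10 of 2948 SVZ barcodes in all, too few for the caller to be relied on). The 36 pairs of libraries shared 33 barcodes in all, at most 3 in a pair, and 1 S-phase cell had a barcode that was also in another library.

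For comparison, 2 other classes of SVZ cells were used, by rules that also rest on UMIs. The mitotic cells, 238, 236 and 252 at the 3 ages, had a UMI of Mki67 or Top2a and none of Pdgfra, with medians of 8578.5, 9247.5 and 10351 UMIs. Their name is short for this rule and not for a phase, since 483 of the 726 had 3 or more rule UMIs. The non-cycling neuroblasts, 217, 287 and 214, had Dcx but no UMI of the rule genes, Mki67, Top2a or Pdgfra, with medians of 3856, 3306 and 3857 UMIs. The classes differed in depth, and all levels below are in CPM, the UMIs of a gene in all cells of a class and library per 1000000 UMIs of these cells.

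The share of S-phase cells was lowest in the aged library. They were 8.21% of kept adult cells (95% exact binomial interval 6.32 to 10.4), 8.70% of middle-aged cells (6.86 to 10.8) and 5.07% of aged cells (3.61 to 6.89), and all intervals here cover counting error only. The intervals of the aged and the middle-aged share overlapped by a narrow margin. The share of mitotic cells was 32.6%, 28.9% and 33.6%, so that S-phase cells were 20.1% (15.7 to 25.1), 23.1% (18.5 to 28.3) and 13.1% (9.44 to 17.5) of the cells of both cycling classes. With every cell thinned to 1500 UMIs the shares of kept cells were 5.61%, 5.15% and 3.20%, and with the 582, 611 and 631 cells of at least 3000 UMIs thinned to 3000 they were 10.5%, 11.3% and 5.39%. The aged share was the lowest in each case, but with 2 rule UMIs in place of 3 it was 8.13% against 10.4% in adult and 10.0% in middle-aged cells. The rule was applied anew to the thinned counts, so that cells that lost their Mki67 or Top2a UMIs could enter. Among adult cells of at least 3000 UMIs, thinning took the S-phase cells from 56 to 61 and the mitotic cells from 218 to 179. In the OB the same rule found 2, 6 and 1 cells (0.451%, 1.01% and 0.323% of kept cells), and in the DG 39, 7 and 1 cells (5.56%, 0.676% and 0.345%).

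The rule genes themselves are given as a description. In the order of 3, 14 and 24 months, the level of Mcm2 in S-phase cells was 215, 279 and 244 CPM, Mcm3 had 234, 283 and 152, Mcm5 had 201, 226 and 216 and Mcm6 had 315, 392 and 276. Ung had 150.4, 162 and 146 and Uhrf1 had 129, 117 and 66.6 CPM. A UMI was found in 89.3% of the S-phase cells for Mcm6, 77.5% for Mcm2, 72.2% for Mcm3, 71.0% for Mcm5, 53.3% for Ung and 47.9% for Uhrf1. In the mitotic cells, which the rule did not choose by these genes, Ung was at 84.0, 75.6 and 65.0 CPM and Mcm2 at 201, 179 and 131 CPM. Of the mitotic cells, 483 of 726 (66.5%) had 3 or more rule UMIs. The genes lie apart in the genome (GRCm38, GENCODE vM21), with Mcm2 at chr6:88883474-88898780, Mcm3 at chr1:20802968-20820312, Mcm5 at chr8:75109569-75128439, Mcm6 at chr1:128331590-128359664, Ung at chr5:114130386-114139323 and Uhrf1 at chr17:56303321-56323486.

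Other genes of DNA replication, which the rule did not name, were listed in 4 groups, with 64 genes in all. Because they are of the same kind as the rule genes, their levels are described without weight on a test. The genes of licensing and origin firing, which load and start the helicase, had summed levels of 1376, 1383 and 1357 CPM. Cdc6, which loads the MCM ring, had 45.4, 61.3 and 79.3 CPM in the S-phase cells, 50.6, 46.3 and 37.8 in the mitotic cells and 0, 0 and 1.16 in the non-cycling neuroblasts. Mcm7, a further helicase subunit, had 363, 379.9 and 333 CPM in S-phase cells, 368, 322 and 319 in mitotic cells and 141, 158 and 173 in non-cycling neuroblasts. Cdc6 was near 0 outside the cycling classes, while Mcm7 kept a level in non-cycling neuroblasts.

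The genes of the replication fork had summed levels of 2376, 2574 and 2330.2 CPM. Pcna, the sliding clamp of the DNA polymerases, had 379.7, 388 and 399 CPM in S-phase, 480.2, 439 and 503 in mitotic and 70.1, 56.4 and 91.5 in non-cycling cells. The nucleotide genes had summed levels of 1354, 1620.3 and 1268 CPM. Rrm2, a subunit of ribonucleotide reductase, had 224, 366 and 247 CPM in S-phase cells against 746, 760.2 and 545 in mitotic cells. Tk1, thymidine kinase, had 19.1, 31.7 and 15.9 CPM in S-phase cells against 140.3, 137 and 102 in mitotic cells. Both were lower in S-phase than in mitotic cells in every library, and the groups did not overlap. Hells, a chromatin remodeller, had 129, 142 and 136 CPM in S-phase and 1.19, 1.02 and 1.16 in non-cycling cells, and Cdca7, its partner, had 704, 781 and 580.2 CPM in S-phase and 522, 492 and 366 in non-cycling cells. The group of chromatin copying had summed levels of 2173, 2364 and 2058 CPM.

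Against the mitotic cells, edgeR's quasi-likelihood test with the library as a block called 27 of these 64 genes lower and 1, Cdca7, higher, with a median log2 fold change of −0.44. Over all 8823 genes tested, 594 were lower (6.73%) and 286 higher (3.24%) at an adjusted p below 0.05, and the median was 0.00. The lower genes were 4 of 16 in licensing, 13 of 26 at the fork, 5 of 10 in nucleotide supply and 5 of 12 in chromatin copying, and 6 of 11 genes of replication-coupled repair were lower too. DESeq2 called 14 of the 64 lower and 0 higher, with 3 at the fork, and 2 of the 11 repair genes lower. Against the non-cycling neuroblasts all 57 genes tested were higher (44 by DESeq2), with a median of 1.73, in a comparison where 1563 of 7252 genes were higher (21.6%) and 1434 lower (19.8%). That the cells were chosen by genes of this kind fixes the latter direction. The choice may also set the direction against mitotic cells in part. Of 669 kept cells with 3 or more rule UMIs, 494 were left out for Mki67 or Top2a.

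The control genes of the G1 to S transition were split. Ccnd2, a D-type cyclin that drives cells through G1, had 7558, 7510.2 and 7298 CPM in S-phase cells, 5076, 5082 and 4347 in mitotic cells and 4033, 4647 and 4426 in non-cycling neuroblasts, with log2 fold changes by edgeR of 0.58 (SE 0.05, adjusted p = 5.04e-12) and 0.75 (SE 0.05, adjusted p = 7.22e-16). Ccnd1 had 74.0, 75.2 and 72.9 CPM against 34.8, 41.8 and 48.0 in mitotic cells, a log2 fold change of 0.80 (SE 0.19, adjusted p = 0.00352). Both D-type cyclins were higher than in mitotic cells in all 3 libraries. E2f1, an activator of S-phase genes, had 86.0, 131 and 82.4 CPM, 80.2, 75.6 and 56.7 in mitotic and 3.56, 5.12 and 5.79 in non-cycling cells. Ccne1, cyclin E1, had 33.4, 39.6 and 22.2 CPM and 44.9, 36.0 and 32.5 in mitotic cells. Of 20 control genes tested, Ccnd1 and Ccnd2 were higher than in mitotic cells, and Ccne2, Cdkn2c, Cdkn2d, E2f2, E2f7 and E2f8 were lower by edgeR, with a median of −0.19, against 3.24% of all genes higher and 6.73% lower. DESeq2 called 1 higher and 3 lower.

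The G2/M genes were low, as the choice by Mki67 and Top2a implies. Cdk1, the mitotic kinase, had 31.0, 33.6 and 34.9 CPM in S-phase and 397, 491 and 425 in mitotic cells, and Ube2c, a ubiquitin ligase partner of mitotic exit, had 33.4, 35.6 and 31.7 CPM in S-phase and 719, 1051 and 863 in mitotic cells. Ccnb1, cyclin B1, had 16.7, 29.7 and 12.7 CPM in S-phase and 382, 511 and 411 in mitotic cells. All 21 G2/M genes were lower, with a median log2 fold change of −4.29, against 6.73% of all genes. Summed over the list, S-phase cells had 361, 487 and 399 CPM, mitotic cells 5837, 7422 and 6377, and non-cycling neuroblasts 182, 97.4 and 169. The S-phase cells therefore kept a low G2/M level above that of the non-cycling cells in each library, and 33 of 169 (19.5%) had a UMI of Cdk1, against 2.65% of non-cycling cells at their lower depth. Thinned to 1500 UMIs these shares were 2.37% and 0.975%.

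**Figure D2:**
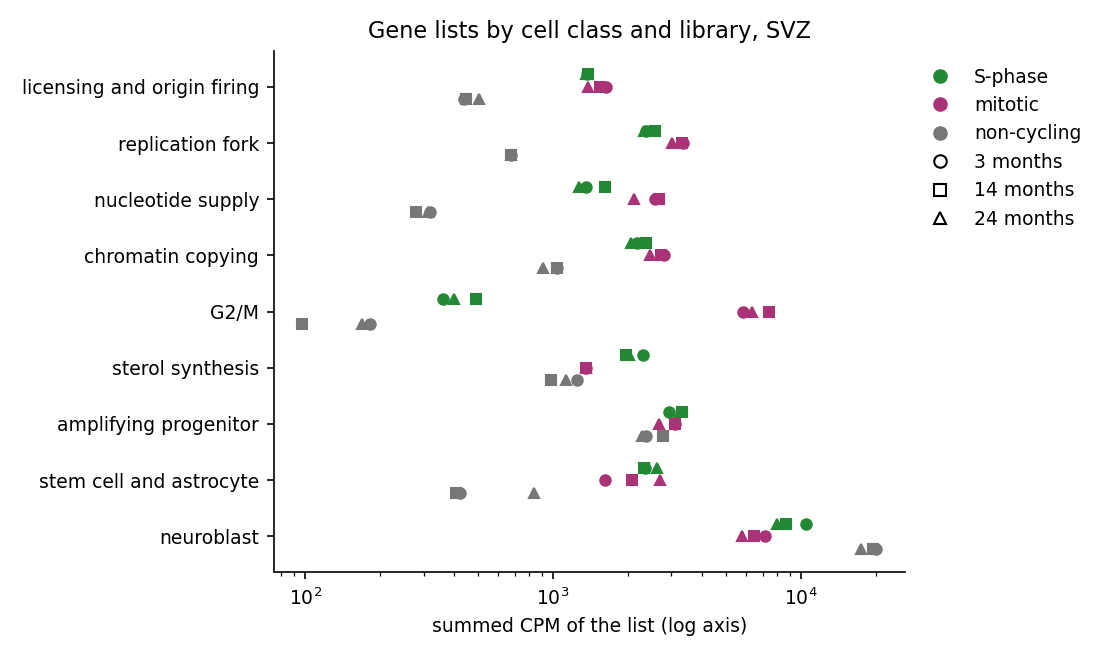
Summed CPM of each gene list (x axis, log scale) in S-phase, mitotic and non-cycling cells, with 1 point for each library, its shape giving the age. The G2/M list sits at 361 to 487 CPM in S-phase cells against 5837 to 7422 in mitotic cells, and the neuroblast list at 8034 to 10495 in S-phase cells between the other classes.

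The markers matched the name of amplifying progenitors in part. Dcx, the marker of neuroblasts, was found in 107 of 169 S-phase cells (63.3%) and in 25.5% of the 98 SVZ cells with 2 or more Pdgfra UMIs, with 26.0% and 11.2% after thinning to 1500 UMIs. Egfr, the growth factor receptor of activated progenitors, was found in 53 of 169 S-phase cells (31.4%) and in 2.51% of non-cycling neuroblasts, with 10.1% and 0.836% after thinning. Gsx2, a homeobox gene of the ventral forebrain, was found in 59 cells (34.9%) and in 3.20% of non-cycling neuroblasts, with 14.2% and 1.11% after thinning. The S-phase cells thus covered both progenitor and neuroblast markers, and they are called by their rule here.

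Most genes of amplifying progenitors were not called against mitotic cells. Egfr had 52.5, 111 and 117 CPM in S-phase, 56.8, 107 and 118 in mitotic and 3.56, 7.17 and 10.4 in non-cycling cells, and edgeR gave −0.05 (SE 0.15, adjusted p = 0.907) against mitotic and 3.69 (SE 0.30, adjusted p = 6.11e-13) against non-cycling cells. Gsx2 had 107, 105 and 85.6 CPM, with 3.26 (SE 0.27, adjusted p = 1.09e-12) against non-cycling cells. Adult Egfr was the lowest of the 3 ages in each of the 3 classes.

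Btg2 was higher in the S-phase cells than in both classes, and Dll3 was so by edgeR. Btg2, an antiproliferative gene of progenitors about to form neurons, had 356, 415 and 609 CPM in S-phase cells, 191, 225 and 228 in mitotic cells and 165, 204 and 276 in non-cycling neuroblasts. Every S-phase value was above every value of the other classes, and the log2 fold changes by edgeR were 1.03 (SE 0.10, adjusted p = 2.16e-10) and 1.07 (SE 0.10, adjusted p = 1.9e-11). Dll3, a Notch pathway ligand-like protein, had 136, 140.5 and 114 CPM in S-phase cells, 86.4, 89.9 and 76.7 in mitotic cells and 16.6, 24.6 and 27.8 in non-cycling neuroblasts, with 0.59 (SE 0.14, adjusted p = 0.00304) and 2.48 (SE 0.21, adjusted p = 2.76e-12). Of 12 genes of the list, Btg2 and Dll3 were higher than in mitotic cells and 2, with Insm1 among them, lower, against 3.24% and 6.73% of all genes. The median of the list was −0.03. By DESeq2, and without the middle-aged library, 1 was higher and 0 lower, and Dll3 was not called, nor was Insm1. Without the adult library 3 were higher and 0 lower. Against non-cycling neuroblasts 9 were higher and 3 lower, against 21.6% and 19.8% of all genes, with 9 and 1 by DESeq2. The 3 lower genes were the interneuron factors Dlx1 and Dlx2, and Mycn. Dlx2 had 728, 896 and 774 CPM in S-phase and 936, 1093 and 812 in non-cycling cells, and edgeR gave −0.27 (SE 0.07, adjusted p = 0.0026).

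Of the neuroblast genes, most were lower than in non-cycling neuroblasts, and a part of them were higher than in mitotic cells. The non-cycling class had to hold Dcx, itself a neuroblast gene, so that its rule may fix the former direction in part. Tubb3, a neuronal tubulin, had 2106, 1921 and 1782 CPM in S-phase cells, 1241, 1100.0 and 939 in mitotic cells and 3858, 3617 and 2937 in non-cycling neuroblasts, without overlap. The log2 fold changes by edgeR were 0.78 (SE 0.06, adjusted p = 3.16e-13) against mitotic and −0.86 (SE 0.05, adjusted p = 5.23e-16) against non-cycling cells. Gad1, an enzyme of GABA synthesis, had 119, 105 and 108 CPM in S-phase cells, 74.0, 60.5 and 66.1 in mitotic cells and 315, 412 and 367 in non-cycling neuroblasts, with 0.69 (SE 0.15, adjusted p = 0.00191) and −1.75 (SE 0.13, adjusted p = 3.01e-14). Stmn2, a tubulin-binding protein of growing neurites, had 859.7, 597 and 466 CPM in S-phase cells, 459, 469 and 429 in mitotic cells and 2570.1, 2612 and 2129 in non-cycling neuroblasts. Dlx6os1, a noncoding RNA of the Dlx5 and Dlx6 locus, had 607, 364 and 485 CPM in S-phase cells, 277, 245 and 240.2 in mitotic cells and 1056, 979.9 and 1161 in non-cycling neuroblasts, and reads of overlapping genes at this locus may not be told apart. Both genes held the middle place in each library.

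Dcx itself had 251, 186 and 228 CPM in S-phase and 164, 146 and 143 in mitotic cells, and edgeR gave 0.50 (SE 0.11, adjusted p = 0.00142). Of 18 neuroblast genes tested, 9 were higher than in mitotic cells, against 3.24% of all genes (Cd24a, Dcx, Dlx6os1, Gad1, Igfbpl1, Nrxn3, Sp9, Stmn2 and Tubb3) and 0 lower (also 0 at an unadjusted p below 0.05 and by DESeq2), with a median of 0.40. Against non-cycling neuroblasts 17 of 18 were lower and 0 higher (17 and 0 also by DESeq2 and at an unadjusted p below 0.05). Of all genes 19.8% were lower and 21.6% higher in this comparison. The median of the neuroblast genes was −1.29. The late SVZ neuroblast gene Prokr2, a receptor for prokineticins, was at 0, 1.98 and 0 CPM in S-phase cells and at 55.8, 102 and 78.8 in non-cycling neuroblasts, with 1 UMI in all S-phase cells. The counts against mitotic cells depended on the settings: with 5 rule UMIs in place of 3, 5 neuroblast genes were higher and 1 lower, and 5 were higher by DESeq2 and with at most 4000 detected genes, whereas 14 were higher with 2 rule UMIs and 15 when mitotic cells had to have both markers.

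Most genes of stem cells and astrocytes were not called against mitotic cells. Slc1a3, a glutamate transporter of astrocytes and NSCs, had 146, 214 and 244 CPM in S-phase cells, 158, 167 and 243 in mitotic cells and 57.0, 28.7 and 48.7 in non-cycling neuroblasts, with 0.06 (SE 0.11, adjusted p = 0.81) and 2.16 (SE 0.21, adjusted p = 1.24e-08) by edgeR. Apoe, a lipid carrier of glia, had 793, 738 and 1049 CPM in S-phase cells, 444, 631 and 899.7 in mitotic cells and 52.3, 23.6 and 254 in non-cycling neuroblasts, and was higher than in mitotic cells by 0.37 (SE 0.09, adjusted p = 0.00723). Gfap, a marker of NSCs and astrocytes, had 1 UMI in all S-phase cells, Hopx had 0 and Thbs4 had 7. Of 10 genes tested, 1 was higher than in mitotic cells and 0 lower, against 3.24% and 6.73% of all genes. The counts of the list were 4 and 0 at an unadjusted p below 0.05, and 3 and 0 when mitotic cells had to have both markers. Its median was 0.08. Apoe was not called with at most 5% mitochondrial UMIs, with 5 rule UMIs, without the block or by DESeq2. Against non-cycling cells, where 21.6% of all genes were higher, 5 of 8 were higher (Aldoc, Glul, Hes1, Slc1a3 and Sox9) and 0 lower, with 8 higher and 0 lower at an unadjusted p below 0.05 and 6 and 0 by DESeq2. The count was 2 with at most 5% mitochondrial UMIs and 3 without the middle-aged library.

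Many genes of sterol synthesis were higher in the S-phase cells than in each other class. This list of 20 genes was drawn up after their values had been seen, so that its counts are a description only. Hmgcs1, the synthase of HMG-CoA at the start of the pathway, had 332, 251 and 304 CPM in S-phase cells, 142, 157 and 162 in mitotic cells and 151, 107 and 175 in non-cycling neuroblasts. The S-phase values were above all others, and edgeR gave 0.89 (SE 0.10, adjusted p = 3.09e-08) and 1.04 (SE 0.12, adjusted p = 1.99e-09). Idi1, an isomerase of the isoprenoid units, had 227, 174 and 238 CPM in S-phase cells, 107, 121 and 125 in mitotic cells and 70.1, 49.2 and 60.2 in non-cycling neuroblasts, with 0.79 (SE 0.12, adjusted p = 4.81e-06) and 1.80 (SE 0.15, adjusted p = 9.52e-13). Msmo1, a sterol demethylase, had 269.8, 184 and 212 CPM in S-phase cells, 109.8, 105 and 135 in mitotic cells and 80.8, 43.0 and 75.3 in non-cycling neuroblasts.

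Of 19 sterol genes tested, 10 were higher than in mitotic cells, against 3.24% of all genes (among them Cyp51, Fdft1, Fdps, Hmgcs1, Idi1 and Msmo1) and 12 were higher than in non-cycling neuroblasts, against 21.6%, with 0 lower in both (0 and 1 at an unadjusted p below 0.05, and 0 in both by DESeq2). Summed over the list the S-phase cells had 2307, 1965 and 2029 CPM, the mitotic cells 1353, 1351 and 1359.7 CPM and the non-cycling neuroblasts 1254, 978 and 1126 CPM. The count against mitotic cells was 4 by DESeq2, 5 without the middle-aged library and 14 when mitotic cells had to have both Mki67 and Top2a. Acat2, Ebp and Pmvk were not called against non-cycling cells, with log2 fold changes of 0.30, −0.52 and −0.30.

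**Figure D3:**
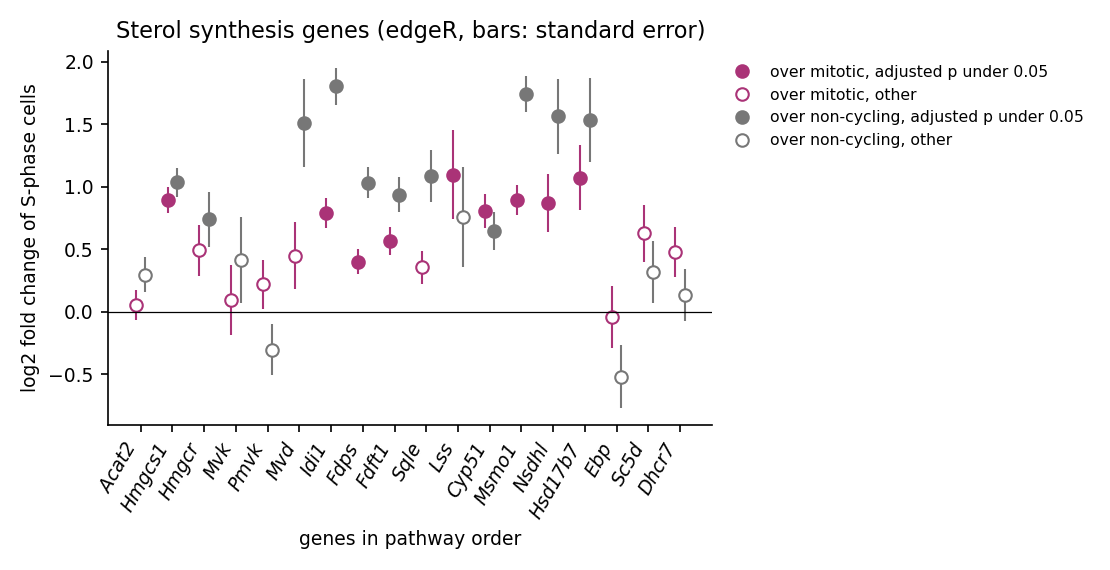
Log2 fold change by edgeR (y axis, bars are standard errors) of the S-phase cells against mitotic cells and against non-cycling neuroblasts for 18 genes of sterol synthesis in pathway order (x axis). Filled points passed an adjusted p of 0.05, such as Hmgcs1 at 0.89 and 1.04 and Idi1 at 0.79 and 1.80, while Ebp lay below 0 without passing.

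Outside the cell cycle lists, the genes with the highest fold change over mitotic cells included Atf3 (1.75 on the log2 scale), the small GTPase Rem2 (1.52), the histone demethylase Kdm7a (1.38), the actin-binding Afap1 (1.37), Dbt (1.28) of branched-chain amino acid breakdown, Gnpda1 (1.22), the autophagy gene Atg14 (1.20) and the claudin Cldn10 (1.19), with a predicted gene, Gm10561, besides. Atf3, a stress-induced transcription factor, had 19.1, 21.8 and 130.0 CPM in S-phase and 8.11, 5.34 and 35.1 in mitotic cells, and 30 of its 41 aged UMIs were in 1 cell. Among the lowest were Fam83d and Pif1, with 0 UMIs in S-phase cells and 431 and 244 in mitotic cells. Spc25, of the kinetochore, had 8 against 2261 UMIs.

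Of the 286 genes higher than in mitotic cells, 109 were also higher than in non-cycling neuroblasts, 79 were lower, 92 were not called and 6 were not tested. The 286 became 102 without the middle-aged library, 120 without the block and 52 by DESeq2. Gpd1, a glycerol phosphate dehydrogenase, had 83.6, 176 and 231 CPM in S-phase, 43.4, 86.7 and 113 in mitotic and 33.3, 24.6 and 48.7 in non-cycling cells, with 0.97 (SE 0.13, adjusted p = 6.72e-07) and 2.19 (SE 0.20, adjusted p = 4.57e-11). In each class the adult library was below the aged one. Mfng, a modifier of Notch receptors, had 141, 121 and 120.5 CPM, with 1.00 (SE 0.15, adjusted p = 8.14e-06) and 0.69 (SE 0.16, adjusted p = 0.000849). Wnt7b, a Wnt ligand, had 16.7, 45.5 and 38.0 CPM against 9.55, 19.1 and 15.5 in mitotic cells and was at 0 in the non-cycling neuroblasts.

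The early response genes were called higher than in mitotic cells for 7 of 14 (Atf3, Dusp1, Fos, Ier2, Jun, Junb and Jund), against 3.24% of all genes, with 0 lower (1 at an unadjusted p below 0.05 and 0 by DESeq2) and a median of 0.41. Jun had 1342, 1112 and 2562 CPM in S-phase, 922, 831 and 1444 in mitotic and 1742, 1457 and 2277 in non-cycling cells, with 0.56 (SE 0.07, adjusted p = 2.58e-08) and −0.21 (SE 0.12, adjusted p = 0.219) by edgeR. The mitochondrial share was 2.48%, 2.71% and 2.94% in the mitotic cells, below that of the S-phase cells at each age, and its part in these values was not tested. The count was 4 by DESeq2 and 0 without the library as a block. Against non-cycling neuroblasts edgeR called 3 of 12 higher (Atf3, Egr1 and Hspa1a) and Dusp1 lower, against 21.6% and 19.8% of all genes, with 1 and 1 by DESeq2.

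Against the non-cycling neuroblasts, the genes with the highest fold change included Zfp36l1 (4.70), Mt2 (4.68), Thrsp (4.63), Mfge8 (4.57), Phgdh (4.51), Gpr37l1 (4.38) and Ntsr2 (4.20). Phgdh starts serine synthesis, and Mfge8, Gpr37l1, Mt2 and Ntsr2 are known from astrocytes. Of the genes with the lowest fold change, Meg3, a noncoding RNA, was at −4.18, the phosphatase gene Ubash3b at −4.46, Htr3a at −4.08 and Socs2, an inhibitor of cytokine signalling, at −3.98. Others had at most 3 UMIs in the S-phase cells, with 2 against 167 for the neurexin ligand Nxph1, 3 against 149 for the teneurin Tenm4, 3 against 136 for Ank3 and 3 against 117 for the synaptic adhesion gene Slitrk3, and a predicted gene had 0 against 104. Ank3 organises the axon initial segment, and Htr3a encodes a serotonin receptor subunit of interneurons. Of 82 ribosomal protein genes, 45 were higher than in non-cycling neuroblasts and 10 lower, with a median of 0.17, against 21.6% and 19.8% of all genes. Against mitotic cells 3 ribosomal protein genes were higher and 1 lower, where 3.24% and 6.73% of all genes were so. By DESeq2 the ribosomal counts were 32 and 2 against non-cycling neuroblasts, and 0 and 0 against mitotic cells.

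Besides the stem cell and astrocyte genes above, markers of other cell types were mostly at few UMIs, with Olig1 and Olig2 among the exceptions. The S-phase cells had 11, 5 and 4 UMIs of 6 oligodendrocyte genes at 3, 14 and 24 months, with Mobp at 0. The mitotic cells had 971 UMIs of this list at 3 months, or 463 CPM, against 12.5 and 12.8 CPM at 14 and 24 months. The part of these transcripts in the comparisons with mitotic cells was not tested. In the S-phase cells 7 of 9 microglia genes were at 0, including Cx3cr1, Aif1 and Csf1r, and the list had 3, 9 and 3 UMIs. Of 10 endothelial and mural genes 9 were at 0, with 2 UMIs of Pecam1 in each library. The oligodendrocyte precursor list had 33, 53 and 40 UMIs, or 78.8, 105 and 127 CPM, of which 75 UMIs were of Olig2 and 50 of Olig1, with Pdgfra at 0 by the rule and Cspg4, Gpr17 and Sox10 at 0. Olig2, a factor of the oligodendrocyte lineage that is also known from SVZ progenitors, was found in 11.7%, 22.5% and 36.8% of S-phase cells at 3, 14 and 24 months (5.0%, 8.45% and 10.5% after thinning to 1500 UMIs), in all 37 of 169 against 176 of 726 mitotic cells, 4 of 718 non-cycling neuroblasts and 92 of the 98 Pdgfra cells. By edgeR it was at 0.11 (SE 0.19, adjusted p = 0.804) against mitotic and 4.92 (SE 0.50, adjusted p = 2.85e-10) against non-cycling cells. Its relative Olig1 was higher than in both classes, with 0.77 (SE 0.26, adjusted p = 0.0489) and 3.06 (SE 0.47, adjusted p = 1.68e-06) by edgeR, and by DESeq2 it was not called against mitotic cells. The part of these cells in the other results was not tested. The ependymal list had 1, 4 and 0 UMIs, and that of mature neurons had 22, 27 and 10, led by Snap25 with 40. Genes of the excitatory lineage were found in the adult library above all, with 39, 2 and 0 UMIs, of which 27 were in 1 cell. Eomes had a UMI in 4, 2 and 0 cells and Neurog2 in 2, 0 and 0.

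Between ages the S-phase cells of 1 library were set against those of another, and a change past 2-fold counted as called. At 24 against 3 months 21 of 2518 genes with at least 50 UMIs were higher (0.834%) and 22 lower (0.874%), and the 5th and 95th percentiles of all genes were −0.61 and 0.55 on the log2 scale. At 14 against 3 months 20 of 3114 were higher (0.642%) and 28 lower (0.899%). Both comparisons share the adult library.

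The summed level of the replication genes was within 2-fold between the ages. The 64 S-phase genes outside the rule had 7279, 7942 and 7013 CPM, a log2 ratio to the adult level of 0.13 (0.06 to 0.19) at 14 months and −0.05 (−0.13 to 0.03) at 24 months. None of the 36 measured at 24 months or the 42 measured at 14 months passed 2-fold. Of all genes 0.834% were higher and 0.874% lower past 2-fold at 24 months, and 0.642% and 0.899% at 14 months, so that few were likely to pass. The nucleotide genes were at 0.26 (0.10 to 0.42) at 14 months. In the mitotic cells the ratio of the 64 genes at 24 months was −0.21.

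The summed level of the neuroblast genes was lower in the S-phase cells of both later ages. The level was 10495, 8669.6 and 8034 CPM, a ratio of −0.28 (−0.34 to −0.21) at 14 months and −0.39 (−0.46 to −0.31) at 24 months. In mitotic cells the ratio at 24 months was −0.31 and in non-cycling neuroblasts −0.21. Dlx5 (chr6:6877805-6882085, − strand), an interneuron factor, was found at 358, 267 and 152 CPM, from 150, 135 and 48 UMIs, with a ratio at 24 months of −1.24 (−1.74 to −0.76). Gad2, the second enzyme of GABA synthesis, had 68, 72 and 21 UMIs and a ratio of −1.29 (−2.07 to −0.56). Of 14 list genes measured at 24 months 9 had intervals below 0, of which Dlx5 and Gad2 were past 2-fold, and 0 had intervals above 0. At 14 months 9 of 15 had intervals below 0, of which 1 was past 2-fold. Over all genes 160 of 2518 had intervals below 0 at 24 months and 168 of 3114 at 14 months. With 5 rule UMIs in place of 3 the ratios of the list were −0.12 and −0.25. Meg3, a noncoding RNA of maturing neurons, had 84, 63 and 31 UMIs and a ratio of −1.03 (−1.67 to −0.42) at 24 months, which turned to 0.59 with 2 rule UMIs.

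The amplifying progenitor list had 2935, 3326 and 3243 CPM, with ratios of 0.18 at 14 months and 0.14 (0.02 to 0.26) at 24 months. Egfr had 22, 56 and 37 UMIs, or 52.5, 111 and 117 CPM, with ratios of 1.08 (0.34 to 1.86) and 1.16 (0.36 to 1.99), so that both later libraries were above the adult one. Btg2 had 149, 210 and 192 UMIs and a ratio at 24 months of 0.77 (0.46 to 1.09). The stem cell and astrocyte list had 2355, 2317 and 2619 CPM, and its ratio at 24 months, 0.15 (0.02 to 0.29), turned to −0.24 with 5 rule UMIs and to −0.15 with at most 5% mitochondrial UMIs. A single aged cell held 170 of its 826 UMIs, and without the top cell of each library the ratio was 0.02 (−0.13 to 0.17). In mitotic cells the ratio of the list was 0.73 (0.67 to 0.79) and in non-cycling neuroblasts 1.00.

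The summed level of the early response genes was higher in the aged library. The list of 16 genes had 4731, 4262 and 8813 CPM, a ratio of −0.15 (−0.24 to −0.06) at 14 months and 0.90 (0.81 to 0.98) at 24 months, and all 9 genes measured at 24 months had intervals above 0, of which Ier2 and Hspa1a were past 2-fold, while over all genes 134 of 2518 had intervals above 0. The mitotic cells had 0.81 and the non-cycling neuroblasts 0.39 at 24 months. Jun had 562, 562 and 808 UMIs and a ratio of 0.93 (0.78 to 1.09), and Ier2 had 245, 334 and 407 UMIs with 1.14 (0.91 to 1.38). The list member Hspa1a (chr17:34969190-34972156, − strand), a chaperone gene, had 16, 19 and 130 UMIs and a ratio of 3.43 (2.68 to 4.28), but all 16 adult UMIs were in 1 cell and 39 of the aged ones were in 1 cell. Dnajb1, a chaperone gene outside the list, had 76, 99 and 157 UMIs and a ratio of 1.46 (1.05 to 1.87). Mitochondrial transcripts, with a ratio of 0.21 at 24 months, moved with these genes, and their part in the result was not tested.

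The summed level of the interferon response genes was higher in both later libraries. The list of 23 genes had 63, 268 and 247 UMIs, or 150.4, 530.2 and 783 CPM, with ratios of 1.82 (1.42 to 2.24) at 14 months and 2.38 (1.98 to 2.80) at 24 months. In mitotic cells these were 1.61 and 2.35 and in non-cycling neuroblasts 2.09 and 2.86. A single aged cell held 95 of the 247 UMIs and 1 middle-aged cell held 40 of 268, and without the top cell of each library the ratios were 1.72 (1.29 to 2.16) and 1.81 (1.36 to 2.28). Ifi27 (chr12:103434211-103440239), an interferon-induced gene, had 25, 84 and 65 UMIs in 18, 31 and 24 cells, with ratios of 1.48 (0.82 to 2.18) and 1.79 (1.10 to 2.51). B2m, the light chain of MHC class I, had 10, 50 and 38 UMIs and a ratio of 2.05 (1.05 to 3.20) at 14 months, and fell short of 50 UMIs at 24 months. Only these 2 genes of the list had 50 UMIs or more at 14 months, and only Ifi27 at 24 months, so that the other members were not measured singly. A UMI of Ifi27 was found in 18 of 60, 31 of 71 and 24 of 38 cells. Between classes, edgeR called 0 of 13 interferon genes against mitotic cells (1 higher and 1 lower at an unadjusted p below 0.05, and 0 by DESeq2). Of all genes 3.24% were higher and 6.73% lower there. Against non-cycling neuroblasts 4 of 11 interferon genes were higher (B2m, Ifi27l2a, Ifitm3 and Psmb8) and 1, Usp18, lower, against 21.6% and 19.8% of all genes. By DESeq2, 1 was higher and 0 lower.

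**Figure D4:**
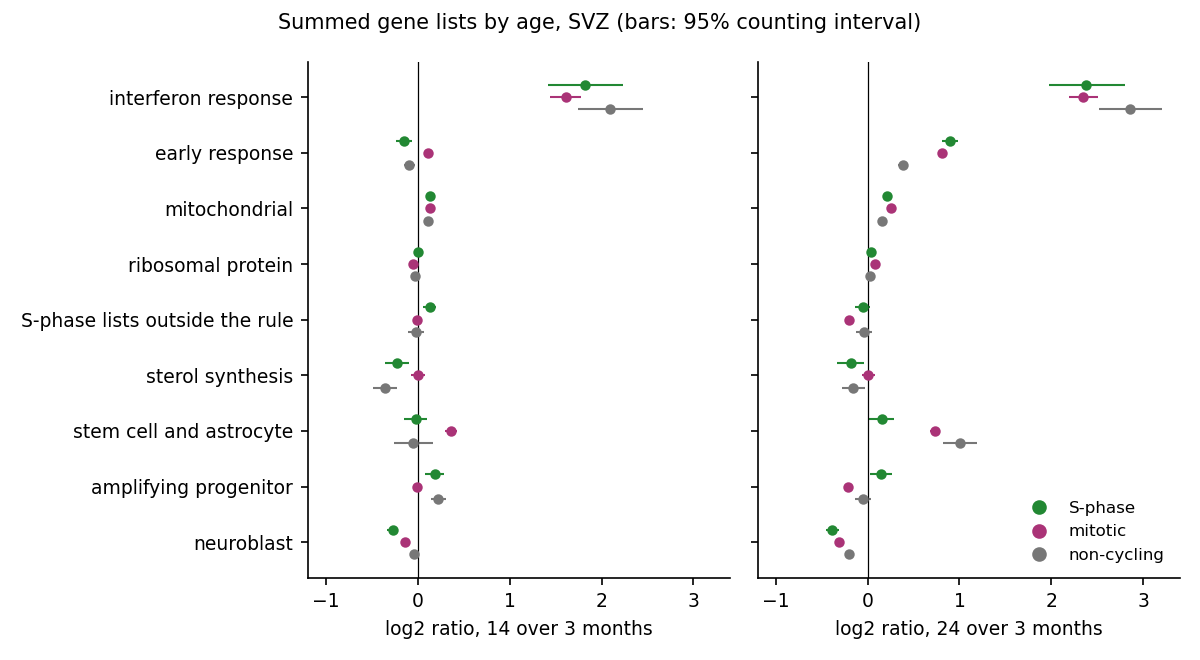
Log2 ratio of the summed level of each gene list (x axis, with 95% counting intervals) at 14 over 3 months and at 24 over 3 months in S-phase, mitotic and non-cycling cells of the SVZ, 1 library per age. The interferon list lies at 1.82 and 2.38 in S-phase cells, the early response list at −0.15 and 0.90, and the S-phase genes outside the rule near 0.

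Among single genes past 2-fold, Gpd1 had 35, 89 and 73 UMIs with ratios of 1.07 (0.50 to 1.68) and 1.47 (0.87 to 2.09), and Slc1a2, a glutamate transporter, had 37, 119 and 77 UMIs with 1.41 (0.87 to 1.99) and 1.47 (0.88 to 2.07). H1f0, a linker histone, had 63, 205 and 104 UMIs with 1.43 (1.02 to 1.86) and 1.13 (0.67 to 1.61). These 3 genes were past 2-fold at both later ages. PISD and Churc1 were higher at 24 months with 1.16 (0.56 to 1.78) and 1.10 (0.51 to 1.69).

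Other genes passed 2-fold at 14 months but not at 24. Thrsp, which is known from lipid synthesis, had 49, 143 and 71 UMIs and a ratio of 1.27 (0.80 to 1.77), and Hist1h2bc, a histone gene, had 45, 124 and 46 with 1.19 (0.69 to 1.72). The pseudogenes Gm8730 (1.40 (0.75 to 2.10)) and Rpl23a-ps3 (1.25 (0.77 to 1.75)) were higher too and may share reads with their parent genes, which was not tested. Lower were Ddb1, of a DNA damage binding complex, with 74, 28 and 32 UMIs and −1.67 (−2.36 to −1.03), Erdr1 with −1.21 (−1.74 to −0.70) and Grcc10 with −1.09 (−1.67 to −0.52). Sterol genes were at −0.23 (−0.36 to −0.10) at 14 and −0.19 (−0.33 to −0.04) at 24 months, p53 targets at 0.02 and −0.40 (−0.74 to −0.07), and ribosomal protein genes at 0.00 and 0.04. Xist, which female cells transcribe, had 166, 333 and 244 UMIs and ratios of 0.73 (0.46 to 1.01) and 0.96 (0.67 to 1.26). The pools thus differed in this measure as well, and its part in the other values was not tested. By edgeR with the library as a block, Xist was also lower in S-phase cells than in mitotic cells and in non-cycling neuroblasts. Of all genes 6.73% and 19.8% were lower in these comparisons.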

How the data were processed

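Per the labels and the study's methods, the authors sorted GFP-positive cells from heterozygote Dcx-GFP mice and made 9 droplet-based 3′ libraries, 1 for each of 3 regions and 3 ages. The submitters' processing notes name Cell Ranger 3.0.2 and mm10. The deposited values are raw counts of UMIs per gene (27998 genes) and barcode, without normalization. SVZ library totals were 4487843, 4861822 and 5247802 UMIs at 3, 14 and 24 months.

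UMIs were summed over the cells of each class and library. Classes were compared with edgeR 4.0.16 in R 4.3.3 (quasi-likelihood test, library as a block, Benjamini-Hochberg adjustment over all genes tested, genes of the class rules untested), and DESeq2 1.42.0 was an alternative. The same animals gave both classes of a library, so the library pairs them, and the p-values measure the spread over 3 libraries of different ages. Ages had 1 library each, and log2 ratios of summed UMIs are given with exact binomial intervals, and genes needed 50 UMIs in the 2 sums together. Intervals are at 95%. CPM are UMIs per 1000000. Scrublet (scanpy 1.11.5, expected rate 0.01) called doublets, which were not removed. Other steps used Python 3.11.15, numpy 2.4.6, scipy 1.17.1, pandas 2.3.3 and matplotlib 3.10.9. The steps were tested on simulated data.

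The members, classes and gene lists were chosen with earlier results of these data known. Named genes were the rule genes, members of the lists, the 10 highest and 10 lowest called genes of each class comparison with at least 100 UMIs and 1 sign in all 3 libraries, those past 2-fold between ages with at least 100 UMIs, and a few that were higher than in both classes (Mfng, Wnt7b), picked after their values were seen. Some genes are not reported here. The alternatives were other minimum UMIs, mitochondrial limits, numbers of rule UMIs, class rules and gene filters, removal of doublets, thinning, a mean over cells, DESeq2, no replicate block and each library left out. Removing the top cell of a list was an alternative chosen after seeing the data. Positions come from GENCODE vM21 (GRCm38), matched by Ensembl identifier for 27645 of 27998 genes.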

Additional observations from a re-analysis of the deposited data

Results flagged for a closer look

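In the cases below, the log2 ratio between ages was on opposite sides of 0 in S-phase cells and in another SVZ class. Both 95% counting intervals were clear of 0. The share of all genes for which this holds is not given here, so the number of cases carries no weight. Each class of an age came from 1 library, and these differences were not tested. All comparisons share the adult library.

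Against the mitotic cells, Meg3 was at −1.03 in S-phase and 0.94 in mitotic cells at 24 months, with 0.59 in S-phase cells when 2 rule UMIs were enough, so that the signs were then alike, and Fabp7, a fatty acid binding protein of radial glia, was at −0.44 and 0.47. The amplifying progenitor list was at 0.14 and −0.21 at 24 months. At 14 months Dlx2, an interneuron factor, was at 0.30 in S-phase and −0.13 in mitotic cells, Hes5, a Notch target of stem cells, at −0.37 and 0.57, and the early response list at −0.15 and 0.11.

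Against the non-cycling neuroblasts at 24 months, Meg3 was at −1.03 in S-phase (0.59 with 2 rule UMIs) and 0.35 in non-cycling cells, Dlx6os1 at −0.32 and 0.14, and Fabp7 at −0.44 and 2.37. At 14 months Meg3 was at −0.69 and 0.29, Dcx at −0.43 and 0.22, Dlx5 at −0.42 and 0.32, Hes5 at −0.37 and 2.74, and Slc1a3 at 0.55 and −0.99. Dcx chose the non-cycling cells, so that its level there depends on the rule. A UMI of Hes5 was found in 8 of 217 non-cycling cells at 3 months and in 12 of 287 at 14 months. Fabp7 was found in 11 of 217 non-cycling cells at 3 months and in 13 of 214 at 24 months. The ratios of these genes in non-cycling cells thus rest on few cells, and the part of single cells was not tested.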

How the results depend on the processing

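Calls against mitotic cells depended most on the method. The 286 higher genes became 52 and the 594 lower genes 242 by DESeq2, and the higher genes became 514 with 2 rule UMIs and 550 when mitotic cells had to have both markers. With no replicate block 120 were higher. With each library left out, 102 to 238 were higher and 333 to 468 lower, the fewest in each case without the middle-aged library. Against non-cycling neuroblasts DESeq2 called 713 higher in place of 1563 and 568 lower in place of 1434, and the other alternatives stayed within 1.5 times, with 1147 to 1356 higher and 1030 to 1226 lower when a library was left out.

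The counts past 2-fold followed the minimum of UMIs. With at least 20 UMIs 136 genes were higher and 174 lower at 24 months, and 142 and 174 at 14 months. With at least 200 UMIs these were 3 and 0, and 1 and 0. With 2 rule UMIs 37 were higher at 24 months, and with 5 rule UMIs 16 were lower at 14 months.

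Summed lists moved with the number of rule UMIs. With 5, the interferon list was at 1.59 at 24 months, the early response list at −0.059 at 14 months, and the neuroblast list at −0.12 at 14 and −0.25 at 24 months (−0.25 also with at most 5% mitochondrial UMIs). The stem cell and astrocyte list went to −0.24 at both ages, while at 24 months it was −0.15 with at most 5% mitochondrial UMIs and 0.63 with 2 rule UMIs. The S-phase genes outside the rule were at −0.011 at 14 months, and at −0.22 at 24 months with 2 rule UMIs. With 3 rule UMIs and without the top cell of each library the interferon list was at 1.81 at 24 months. With 5 rule UMIs the G2/M list was at 0.77 at 14 months, and the ribosomal list at −0.028, with 0.059 (2 rule UMIs) and 0.02 (mean over cells) at 24 months. Meg3 at 24 months turned to 0.59 with 2 rule UMIs. The causes were not tested.

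The share of S-phase cells with 5 rule UMIs was 5.06% at 3 months, 7.60% at 14 and 3.47% at 24 months, and with 2 it was 8.13% at 24 months. Thinned to 1500 UMIs, with the rule applied anew, it was 5.61%, 5.15% and 3.20%, or 20.8%, 19.1% and 14.4% with 1 rule UMI. Thinned to 3000 UMIs it was 10.5% in adult and 11.3% in middle-aged cells, and with at least 3000 UMIs it was 10.97% in the latter. The 38 aged cells limit what could be seen at 24 months, and no alternative replaces a second library per age.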
